A study of Mus musculus with 54 samples.

Results

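Differentiation-phenotype (Diff) tubules of Blimp1-Cbfb cKO testes at P21 were compared with control testes in their LIN28A- germ cell segments. The members were chosen by their labels, as the 4 libraries of LIN28A- segments from Diff regions and the 6 libraries of LIN28A- segments from controls, which makes 10 of the 54 libraries in the series. The cKO animals carried the Blimp1-Cre transgene and 2 floxed Cbfb alleles (Blimp1-Cre Tg; Cbfb fl/fl), and the heterozygous controls carried the same Cre transgene with 1 floxed allele (Blimp1-Cre Tg; Cbfb fl/+), so that Cre was present in every library described here. Blimp1-Cre is a germline driver in the testis with activity in some somatic tissues outside it. All libraries came from sections of fixed testis from mice at postnatal day 21, with no treatment. In controls, 1 circular region was placed at random on each section, with 3 sections from each of 2 animals. The number before the dot in a control's label was read as the animal. Diff regions were drawn around tubules in which the spermatocyte or spermatid layers looked interrupted, so a shortage of those cells was the criterion of their choice and is no finding here. The study had 2 cKO animals at this age, and which animal each of the 4 Diff regions came from is not given, so some regions share an animal.

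CBFβ, the protein made from Cbfb, is the partner that stabilises RUNX transcription factors on DNA. In the testis, spermatogonia on the basement membrane divide and differentiate, enter meiosis as spermatocytes and then form spermatids. LIN28A is an RNA-binding protein of undifferentiated spermatogonia and DDX4 is an RNA helicase of germ cells, so a LIN28A-DDX4+SYTO13+ segment, with SYTO13 as the nuclear stain, is meant to hold differentiating spermatogonia, spermatocytes and early spermatids.

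Each library held the number of molecules counted for 20175 probes of a whole-transcriptome panel. A lookup of the probe identifiers in gene tables matched 0 of 20175, so results are given by probe, and neither Cbfb nor the markers of any germ cell stage or somatic cell type were checked. Levels are given in CPM, a probe's count divided by the total of its library, or of the summed sections of an animal, and scaled to one common total. No background was subtracted and no limit of detection was set, so how far a level lay above background was not assessed. The 6 probes named by the smallest p in the 2 comparisons of Diff regions are listed with their 12-base readout tag, a designed barcode that is sequenced in place of the transcript and is not mouse sequence, since the tag and the identifier are what ties each value to its probe. The first 3 were lower and the last 3 higher in Diff regions.
RTS0073308: acctcaacgatg
RTS0078043: gagacaatcgga
RTS0067909: tacggatcatct
RTS0073540: tgcaactggaat
RTS0069165: tattgagtatat
RTS0066845: catcgcgactgg

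Diff segments were small and their libraries shallow. The LIN28A- segments of Diff regions 1 to 4 gave 738575, 231410, 365032 and 386041 counts, against 2115530 to 7085244 counts in the 6 control libraries. The median probe had 32, 10, 15 and 16 counts in the 4 regions and 76 to 275 counts in controls. Segment areas, read from a worksheet column that has no heading or unit and taken here as square µm, were 5424 to 13819 in Diff regions and 104394 to 181901 in controls, with no overlap. Counts per unit of area were 33.6 to 59.5 in Diff segments and 20.3 to 39.0 in control segments, where only region 3 fell within the control range. Between 91.9% and 94.0% of matched reads in these 10 libraries were duplicates of a molecule already counted.

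**Figure D1:**
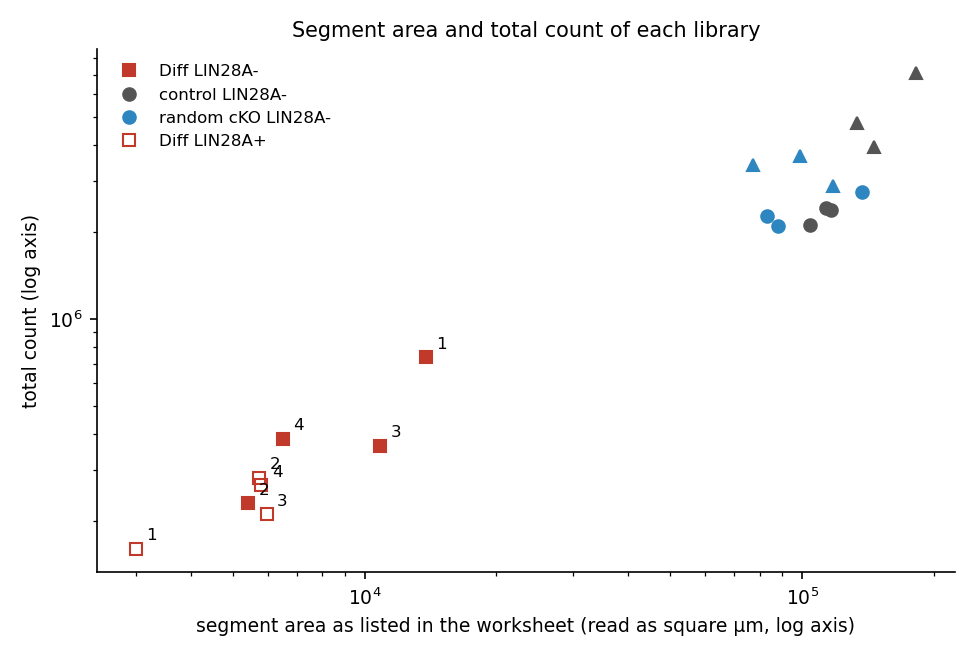
Segment area and total count of each library, both on log axes. Filled squares are LIN28A- and open squares LIN28A+ segments of Diff regions with the region number, and circles and triangles are sections of animals 1 and 2 of the control and randomly placed cKO groups; the 4 Diff LIN28A- segments reach at most 738575 counts and the control LIN28A- segments start at 2115530.

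Diff region 4 stood apart from regions 1 to 3 in what should mark its LIN28A- segment. To follow the 2 kinds of segment without gene names, 200 probes were taken that were higher in LIN28A- segments (the LIN28A- side) and 200 that were higher in LIN28A+ segments (the LIN28A+ side) of the 12 randomly placed P21 cKO libraries, which include no Diff or control library. In region 1, 180 of the 200 LIN28A- side probes were higher in the LIN28A- segment than in the LIN28A+ segment of the same region, with a median difference of 0.80 on the log2 CPM scale. Region 2 had 196 such probes and a median of 1.23, and region 3 had 191 and a median of 0.76. In region 4 only 99 of 200 were higher and the median difference was 0.00. Both control animals had 200 of 200, with medians of 1.39 and 1.07. The LIN28A- side probes held 1.41% of all counts in the LIN28A- segment of region 4 (95% Wilson interval 1.37 to 1.45, which covers counting error only) and 1.41% (1.37 to 1.46) in its LIN28A+ segment, so these probes did not separate its segments. On this list the library labelled as the LIN28A- segment of region 4 did not bear out its label, with no shift in either direction. The label was kept, and whether it is right was not tested.

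**Figure D2:**
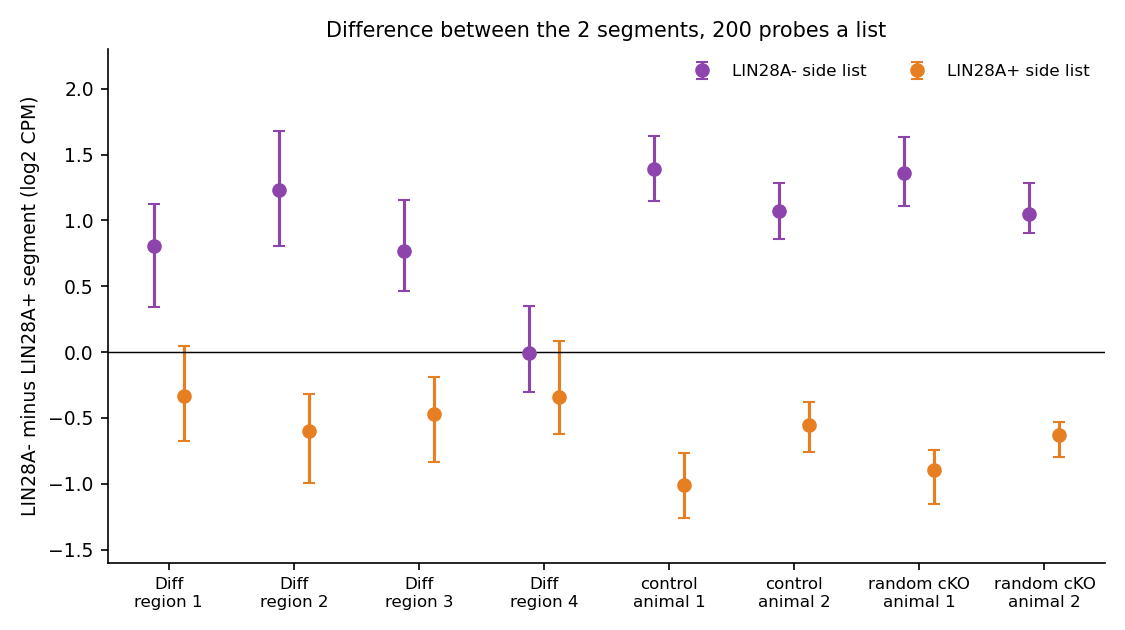
Difference between the LIN28A- and LIN28A+ segment of each Diff region, control animal and randomly placed cKO animal, in log2 CPM, for the 2 lists of 200 probes. Points are medians over the list and bars run from the first to the third quartile of its probes. The LIN28A- side list of Diff region 4 sits at 0.00, while those of the other Diff regions and of both control animals lie between 0.76 and 1.39. The lists were chosen on the randomly placed cKO libraries, so the separation in those animals was fixed in advance.

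The LIN28A+ side probes did separate the segments of region 4. Their median difference there was -0.34 with 142 of 200 probes lower in the LIN28A- segment, beside -0.33 to -0.60 with 146 to 171 probes lower in the other 3 regions. Over all probes the 2 segments of region 4 had a chi-square of 1.06 per degree of freedom, against 1.11 to 1.31 in regions 1 to 3. Among LIN28A- segments, region 4 against the sum of the other 3 had 48 probes more than 2-fold lower and 5 more than 2-fold higher, of 522 probes with a mean of at least 100 CPM. The same count was 2 and 2 for region 1, 6 and 26 for region 2, and 1 and 5 for region 3. The chi-square between 2 Diff regions was 1.15 to 1.41 per degree of freedom, more than sampling noise, and no 2 libraries were identical. Most counts of calls, list medians and fold changes of named probes are therefore also given without region 4.

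The probes that edgeR called were mainly lower in Diff regions than in controls. Over all 20144 probes tested, the fitted log2 fold change was below 0 for 9686 and above 0 for 10458. By edgeR's quasi-likelihood test of the 4 regions against the 2 control animals, 143 of 20144 probes tested were lower (0.71%) and 17 were higher (0.0844%) at an adjusted p under 0.05. Of the 143 lower probes, 101 fell by more than 1 on the log2 scale and 7 by more than 1.5, with a largest fall of 1.83. The 17 higher probes rose by 0.65 to 0.82. No probe in either direction reached a log2 fold change of 2. Since some regions share an animal, p-values over regions are too small.

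Among the lower probes, region 4 was the lowest of the 4 regions for 96 of 143, and region 2 was the highest for 104. The median level of the 143 probes was 54.2, 86.4, 60.3 and 41.4 CPM in regions 1 to 4, against 132 CPM in control animal 1 and 95.6 CPM in control animal 2. The median of region 2 was thus closer to that of control animal 2 than to that of another Diff region. For the 17 higher probes the medians were 52.8, 47.5, 49.3 and 54.4 CPM in the regions and 27.5 and 32.5 CPM in the 2 control animals, with little difference among regions. These probes were chosen by the same contrast, so their levels are a description. Over all probes tested the median was 41.1 to 43.3 CPM in the 4 regions and 36.0 and 39.7 CPM in control animals 1 and 2. By median, the 17 higher probes thus lay below the typical probe in controls and above it in Diff regions. Without region 4 the test called 13 probes lower and 2 higher, all 15 of them among the 160.

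**Figure D3:**
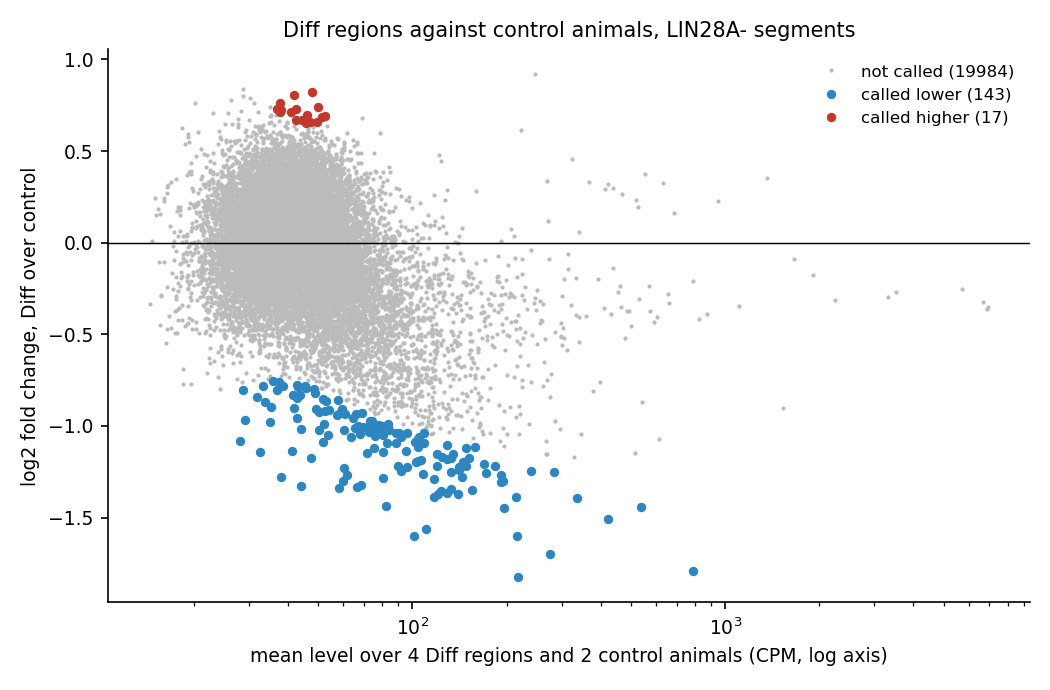
Log2 fold change of Diff regions over control animals in LIN28A- segments against the mean level in CPM (log axis), 1 point a probe, with the 143 probes called lower in blue and the 17 called higher in red. Calls of lower probes are spread over all levels and densest at high ones, and calls of higher probes lie between 0.65 and 0.82 in the middle of the range.

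The control animals did not stand equally far from the Diff regions. Against control animal 1 alone, edgeR called 723 probes lower and 134 higher, and against control animal 2 alone it called 7 lower and none higher, with 1300 probes at an unadjusted p under 0.05. In each of these fits the lone animal was assumed to vary like the Diff regions. Sections of 1 control animal had a chi-square of 1.42 to 2.08 per degree of freedom and sections of different animals one of 2.71 to 5.85, at a greater depth than the Diff regions. The count of 160 also depended on the tool: DESeq2 called 99 probes, all lower, and 35 of them were among the 160. DESeq2 gave no adjusted p to part of the probes, which it could then not call. The probes named below for this comparison were among those, so the small overlap is not a disagreement on them. With upper-quartile factors 538 were lower and 9 higher. With quantile normalization and limma 0 probes passed the adjusted threshold and 874 had an unadjusted p under 0.05.

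Separation of the single libraries was asked for without a model. All 4 Diff regions lay below all 6 control libraries for 461 of 20144 probes (2.29%) and above all 6 for 948 (4.71%). Of the 143 probes called lower, 68 were separated in this way, and of the 17 called higher, 11 were. The balance of the 2 counts depended on the scaling. The median probe was at 41.1 to 43.3 CPM in Diff regions and at 36.0 and 39.7 CPM in control animals 1 and 2, and with each library divided by its own median, a scaling chosen after seeing the data, 943 probes lay below all controls and 322 above. Without region 4, in CPM, 667 lay below and 1733 above.

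RTS0073308 had the smallest p of the lower probes. Its level was 28.4, 30.2, 32.9 and 15.5 CPM in Diff regions 1 to 4, which rest on 21, 7, 12 and 6 counts. Control animals had 65.0 and 55.9 CPM, and their 6 sections ran from 45.1 to 68.5 CPM. Every Diff region lay below every control section, and region 4 was the lowest. All 4 Diff values were also below the median tested probe of their region (41.1 to 43.3 CPM). The control values were above the medians of 36.0 and 39.7 CPM in control animals 1 and 2. The log2 fold change was -1.28 (standard error 0.23, adjusted p = 0.000221 by edgeR). Without region 4 it was -1.11 with an adjusted p of 0.031. In randomly placed cKO regions the level was 49.4 and 46.3 CPM in the 2 animals, between the Diff and the control values.

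RTS0078043 gave 32.5, 38.9, 32.9 and 18.1 CPM in the Diff regions, from 24, 9, 12 and 7 counts, against 83.4 and 57.3 CPM in the control animals. The control sections ran from 52.0 to 89.8 CPM and did not overlap the Diff regions, whose values again lay below the median tested probe of each region. The fall of 1.33 on the log2 scale (standard error 0.24) passed at an adjusted p of 0.000221 by edgeR, and without region 4 the log2 fold change was -1.16 with an adjusted p of 0.031. In LIN28A+ segments this probe was at 7.5 to 42.4 CPM in Diff regions and at 27.9 and 33.0 CPM in control animals, where the groups overlapped. Neither of these 2 probes belonged to the LIN28A- side list.

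RTS0073540 led the higher probes with 78.5, 30.2, 38.4 and 75.1 CPM in the Diff regions, from 58, 7, 14 and 29 counts. The control animals had 30.9 and 34.1 CPM. Regions 1 and 4 were above all 6 control sections (26.9 to 35.8 CPM), region 3 was just above them and region 2 lay within their range. Its log2 fold change of 0.82 (standard error 0.18, adjusted p = 0.0031 by edgeR) therefore came from regions 1 and 4. Without region 1 it was 0.54 with an adjusted p of 0.44, and without region 4 it was 0.73 with an adjusted p of 0.12. Against control animal 2 alone the adjusted p was 0.086.

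RTS0069165 was more even, with 44.7, 69.1, 54.8 and 69.9 CPM in the Diff regions and 27.5 and 34.0 CPM in the control animals. All 4 regions lay above the control sections, which ran from 22.7 to 35.7 CPM. The rise was 0.74 on the log2 scale (standard error 0.18, adjusted p = 0.0157 by edgeR), and without region 4 it was 0.63 with an adjusted p of 0.23. The adjusted p was 0.066 without region 3 and 0.37 against control animal 2 alone.

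**Figure D4:**
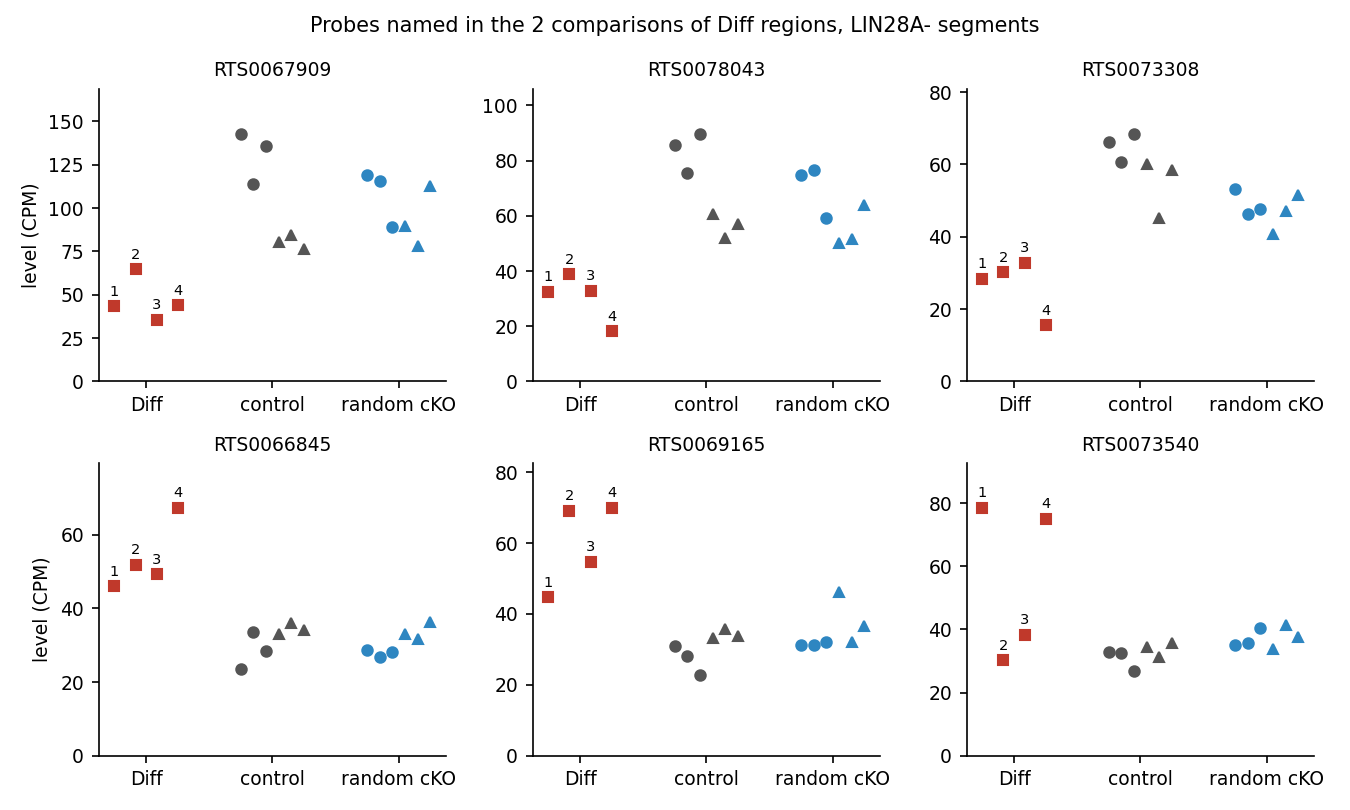
Level in CPM of the 6 probes named in the comparisons of Diff regions, in LIN28A- segments of Diff regions (squares with the region number), of controls and of randomly placed cKO regions (circles for animal 1, triangles for animal 2). The 3 probes of the upper row are lower in all 4 Diff regions than in every control section, and for RTS0073540 region 2 lies among the controls.

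Probes that mark LIN28A- segments were lower in Diff regions. All 200 probes of the LIN28A- side had a log2 fold change below 0 against controls, with a median of -0.95 (quartiles -1.15 and -0.82), where the median over all 20144 probes was 0.01. By edgeR 65 of the 200 were called lower (32.5%, against 0.71% of all probes) and none higher. The 65 were 45.5% of the 143 lower calls. DESeq2 called 51 of the 200 lower. With quantile normalization and limma none passed and the median was -0.61. There 63 were lower at an unadjusted p under 0.05, against 874 of all 20144 probes in both directions together. Diff regions were chosen for interrupted spermatocyte or spermatid layers, and those are cells that LIN28A- segments are meant to hold. The fall of this list is therefore given as a description, and how much of it that choice set in advance was not tested. In a bulk segment, fewer cells of a kind and less RNA per cell cannot be told apart.

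The median level over this list was 92.7, 138, 98.6 and 57.0 CPM in Diff regions 1 to 4. It was 197 CPM in control animal 1 and 142 CPM in control animal 2, and 124 to 208 CPM in the 6 control sections. Regions 1, 3 and 4 lay below every control section, and region 2 lay within the range of control animal 2. Against control animal 1 the median difference of the 4 regions was -1.14, -0.64, -1.0 and -1.79 in log2 CPM. Against control animal 2 it was -0.61, -0.14, -0.57 and -1.35, with 138 of 200 probes lower in region 2 and all 200 lower in region 4.

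Without region 4, all 200 LIN28A- side probes still had a log2 fold change below 0, with a median of -0.78. Only 4 of them passed the adjusted threshold in edgeR. An unadjusted p under 0.05 was reached by 152 of the 200, against 1907 of all 20168 probes tested. Without region 1 or region 3 the called probes were 11 and 18, and without region 2 they were 117. Against control animal 2 alone the median was -0.64 with 198 of 200 below 0 and 1 called lower, and against control animal 1 alone it was -1.21 with 150 called lower. In the fit with all regions and both animals, upper-quartile factors called 151 of the 200 lower and libraries as units 115. The level of the list in region 4, 57.0 CPM, lay within the 55.9 to 61.3 CPM of the 4 LIN28A+ segments of Diff regions. In regions 1, 2 and 3 it lay above that range and above the 66.9 and 72.5 CPM of the LIN28A+ segments of control animals 2 and 1.

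The LIN28A+ side probes showed no common shift. Their median log2 fold change was 0.01, 97 of 200 were below 0 and 103 above. By edgeR 0 of the 200 passed the adjusted threshold, with 2 lower and 12 higher at an unadjusted p under 0.05. Over all 20144 probes tested, 2446 had an unadjusted p under 0.05 in this fit, both directions together. DESeq2 called 1 lower, and limma after quantile normalization called 0. Their median level was 62.3, 56.2, 63.0 and 79.0 CPM in Diff regions 1 to 4, with region 4 the highest, against 52.3 to 60.0 CPM in the control sections. Without region 4 the median log2 fold change was -0.07 and against control animal 1 alone it was -0.06, so its sign did not hold.

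**Figure D5:**
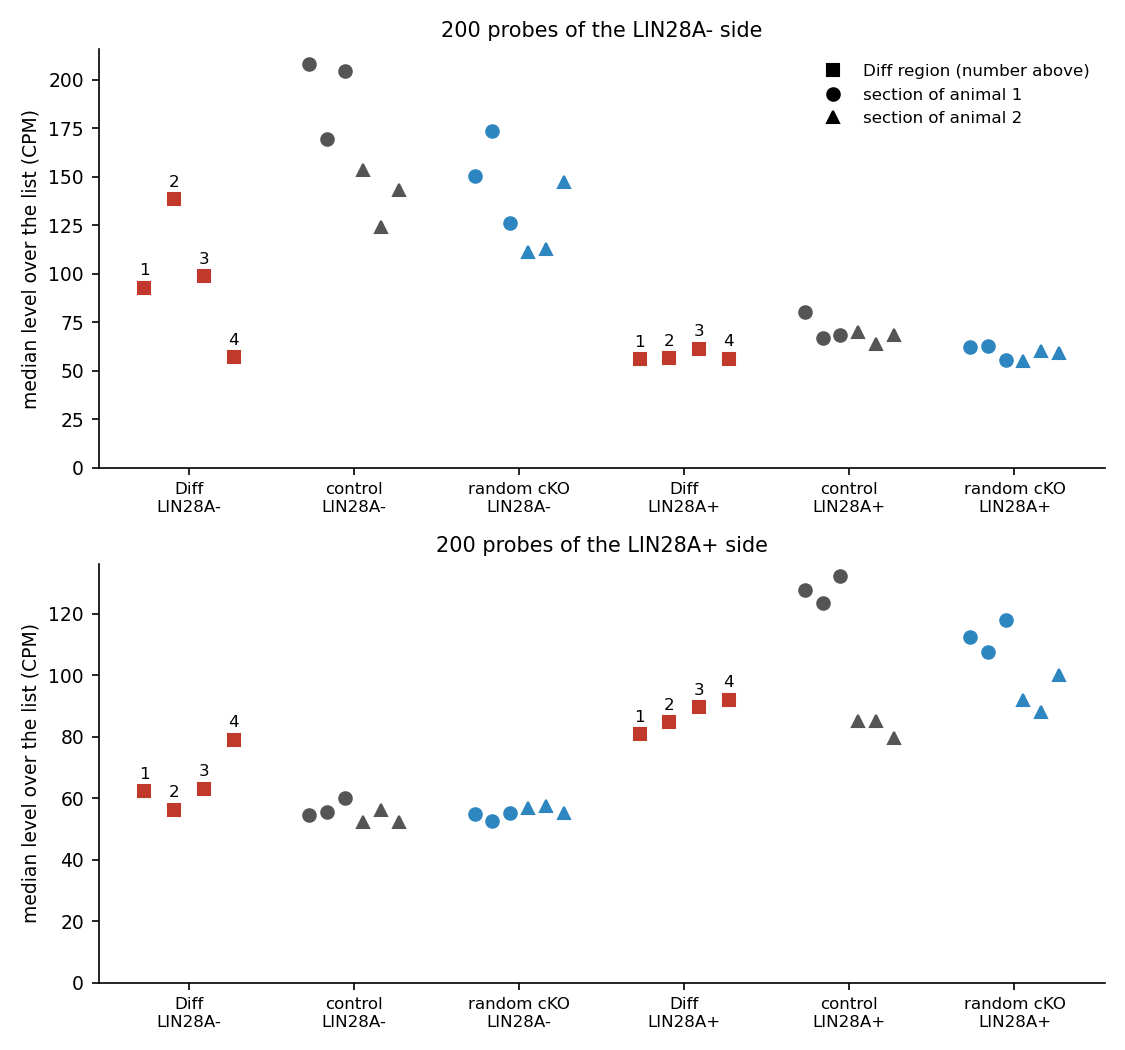
Median level in CPM over the 200 probes of the LIN28A- side (top) and of the LIN28A+ side (bottom) in each library. Squares are Diff regions with their number, circles and triangles are sections of animals 1 and 2. In the top panel region 4 of the Diff LIN28A- segments sits at 57.0 CPM, among the LIN28A+ segments, and region 2 at 138 CPM, among the controls.

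The falls also followed the level of a probe. The tested probes were divided by mean level into 10 groups of equal size. In the group of highest level, above 66.6 CPM, the median log2 fold change was -0.36 (-0.35 without region 4) and 89 of the 143 lower calls were found there. None of the 17 higher calls was in that group. In the other 9 groups the median lay between -0.10 and 0.08. Of the LIN28A- side probes, 193 were in the group of highest level, and their median there was -0.95. The 1732 probes of that group on neither list had a median of -0.33, and 27 of them were called lower. The 100 most abundant probes of each library took 6.31% to 8.57% of counts in Diff segments and 8.44% to 9.65% in control segments, with an overlap in region 3 alone. Area, depth and level moved together with the group, and their part in the fall of the LIN28A- side was not tested.

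A comparison with randomly placed LIN28A- regions of cKO testes asked how Diff tubules differed from the mutant testis at large. These 6 libraries came from 2 cKO animals, which may be the animals of the Diff regions. By edgeR 2 of 20149 probes (0.00993%) passed the adjusted threshold, and both were lower in Diff regions. At an unadjusted p under 0.05 there were 1680 probes, and p-values are again too small where regions share an animal. The 4 Diff regions are those of the comparison above.

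RTS0067909, which is on the LIN28A- side list, had 43.3, 64.8, 35.6 and 44.0 CPM in Diff regions 1 to 4. The randomly placed cKO regions of the 2 animals had 109 and 92.1 CPM and the control animals 131 and 80.1 CPM, all above the highest Diff region. Against the randomly placed cKO regions its log2 fold change was -1.21 (standard error 0.22, adjusted p = 0.0108 by edgeR). RTS0078043 was the other called probe, at 70.7 and 54.8 CPM in the cKO animals, with a log2 fold change of -1.09 (standard error 0.22, adjusted p = 0.0357 by edgeR). Without region 4 its adjusted p was 0.19, and RTS0067909, with a log2 fold change of -1.20 and an adjusted p of 0.020, was one of 2 probes called. Neither probe passed without Diff region 1 (adjusted p of 0.42 for RTS0067909 and 0.44 for RTS0078043), without Diff region 3 (0.19 for both) or against cKO animal 2 alone (0.40 and 0.42).

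The 2 higher probes with the smallest p did not pass. RTS0073540 had a log2 fold change of 0.69 (adjusted p = 0.23 by edgeR), with 36.9 and 37.8 CPM in the cKO animals. RTS0066845 had 46.0, 51.9, 49.3 and 67.4 CPM in Diff regions against 27.9 and 33.4 CPM in the cKO animals and 28.5 and 34.1 CPM in the control animals. Its 4 regions lay above both, yet its log2 fold change of 0.71 had an adjusted p of 0.23. Without region 4 the log2 fold changes of these 2 probes were 0.60 and 0.58, both with an adjusted p of 0.54.

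The 143 probes called lower against controls had a median level of 100 and 82.5 CPM in the 2 cKO animals, given as a description since the probes were chosen for a distance between Diff regions and controls. The LIN28A- side list had a median log2 fold change of -0.62 against the randomly placed cKO regions, but the list was chosen on those libraries for being high in their LIN28A- segments, so that value is no separate evidence. Region 2 was 0.06 above cKO animal 2 in the median of this list and regions 1, 3 and 4 were 0.45, 0.35 and 1.14 below it.

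Within Diff regions, the LIN28A- segment was set against the LIN28A+ segment of the same region, with the region as a block. By edgeR 45 of 15264 probes were higher in LIN28A- segments (0.295%) and 15 were lower (0.0983%). Of the LIN28A- side list 40 of 199 tested probes were called higher, and of the LIN28A+ side list 12 of 195 were called lower, so 52 of the 60 calls lay on the 2 lists. The list medians were 0.74 and -0.43 on the log2 scale. Without region 4, 108 probes were higher and 23 lower, with 84 of the LIN28A- side called and list medians of 0.97 and -0.48. Without region 2 the calls were 4 higher and 8 lower, with 3 of the LIN28A- side, and without region 3 they were 7 higher and 6 lower, with 7 of the LIN28A- side. DESeq2 called 1 probe higher, which was on the LIN28A- side, and 3 lower. Without the block on region 30 were higher and 7 lower. Pairs of segments from 1 animal are not separate replicates, and these p-values are too small for that reason.

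RTS0068362 is a LIN28A- side probe that did separate the segments of region 4. Its level in LIN28A- segments of regions 1 to 4 was 598, 320, 690 and 150 CPM, and in LIN28A+ segments 292, 148, 203 and 71.3 CPM. It was higher in the LIN28A- segment of every region, with a log2 fold change of 1.26 (standard error 0.20, adjusted p = 5.4e-05 by edgeR). Without region 4 it was 1.32, and without region 3 it was 1.07 with an adjusted p of 0.053. Control animals had 964 and 522 CPM in LIN28A- segments, so regions 1 and 3 lay between the control animals and regions 2 and 4 below both.

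RTS0069994, on the same side, was at 226, 441, 192 and 62.2 CPM in LIN28A- segments and at 60.0 to 70.8 CPM in all 4 LIN28A+ segments. The first 3 regions were far above their LIN28A+ partners and region 4 was not. The log2 fold change was 1.66 (standard error 0.26, adjusted p = 5.5e-05 by edgeR), or 2.09 without region 4. Without region 2 it was 1.15 with an adjusted p of 0.11.

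RTS0068336, a LIN28A+ side probe, was at 232, 69.1, 93.1 and 111 CPM in LIN28A- segments and at 478, 339, 458 and 218 CPM in LIN28A+ segments, a log2 fold change of -1.57 (standard error 0.21, adjusted p = 2.0e-06 by edgeR). RTS0068350, on the same side, had a log2 fold change of -1.36 (standard error 0.19, adjusted p = 2.9e-06), from 142 to 207 CPM and 364 to 651 CPM. Region 4 kept the direction of the other regions for both probes, and without it the log2 fold changes were -1.72 and -1.36.

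Whether the difference between segments was itself different in Diff regions and controls was tested as an interaction, with region or animal as a block. By edgeR 2 of 20059 probes passed (0.00997%), with 1206 at an unadjusted p under 0.05, and DESeq2 and limma called 0, with 312 and 301 at an unadjusted p under 0.05. The 200 LIN28A- side probes had a median interaction of -0.53, with 192 below 0, and none of them passed the adjusted threshold in edgeR, where 60 were lower at an unadjusted p under 0.05. Without region 4 that median was -0.27. The 200 LIN28A+ side probes moved the other way, with a median interaction of 0.31 and 174 above 0. By edgeR 2 of them passed and 36 were higher at an unadjusted p under 0.05. Their median was 0.26 without region 4 and 0.09 without control animal 1.

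The 2 that passed were RTS0068460 and RTS0068462, both of the LIN28A+ side list and both chosen here after their values had been seen. RTS0068460 was at 1054 and 319 CPM in LIN28A+ segments of control animals 1 and 2, and at 30.0 to 94.3 CPM in those of Diff regions. The single LIN28A+ sections of control animal 2 ran from 152 to 563 CPM. Those of randomly placed cKO regions ran from 43.7 to 343 CPM, so low levels were not limited to Diff regions. In LIN28A- segments it was at 95.6 and 87.9 CPM in controls and at 54.2, 56.2, 71.2 and 130 CPM in Diff regions, where the groups overlapped. The interaction of 2.93 (standard error 0.38, adjusted p = 9.0e-07 by edgeR) therefore came from the LIN28A+ segments of controls. Regions that share an animal make this p too small as well. RTS0068462 had 474 and 165 CPM in LIN28A+ segments of controls and 55.9 to 86.3 CPM in those of Diff regions. Its LIN28A+ sections of randomly placed cKO regions ran from 18.7 to 155 CPM. In all LIN28A- segments of Diff regions it was at 43.2 to 67.4 CPM. The interaction of this probe was 2.03 (standard error 0.35, adjusted p = 0.00126 by edgeR). Without region 4 the fit called 2 probes higher and 2 lower. The interactions of RTS0068460 and RTS0068462 were then 2.30 and 2.05, and both passed. Without Diff region 1 the adjusted p of RTS0068462 was 0.12. Against control animal 2 alone neither of these 2 probes passed.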

How the data were processed

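GeoMx whole-transcriptome probes were read on P21 testis sections. The authors trimmed, merged and matched reads to probe tags and collapsed duplicates with the GeoMx NGS Pipeline (version 2.3.3.10), and deposited a raw count per probe and segment, with no normalization. Unlisted probes were set to 0. The sources used here do not name the normalization or test of the GeoMx comparisons. The segment area is another value of the deposited worksheet.

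Sections of an animal were summed, and each Diff region was 1 unit. Tests used edgeR 4.0.16 (quasi-likelihood, TMM factors, filterByExpr with a minimum count of 10, Benjamini-Hochberg adjustment, threshold 0.05) in R 4.3.3, with standard errors implied by the F statistic. DESeq2 1.42.0, limma 3.58.1 after quantile normalization, upper-quartile factors, no filter, only probes above the median CPM, libraries as units, no block and leaving out each region or animal were alternatives. Log2 CPM of single units used a pseudocount of 0.5 counts. List medians and region comparisons carry no test. Tables were made with scipy 1.17.1, numpy 2.4.6 and pandas 2.3.3 in Python 3.11.15, and figures with matplotlib 3.10.9.

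On simulated counts the comparison of Diff regions with controls (20126 probes tested) found 78 of 100 probes changed by 1 on the log2 scale and 100 of 100 changed by 2. The contrast of segments (14870 probes tested) found 37 and 71, and the interaction (19898 probes tested) found 21 and 81. The simulated units were independent, with a spread set by the trend over level of each fit, whereas some Diff regions share an animal. These shares therefore do not give the power of the real tests.

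The 2 segments of a Diff region were paired by region, since the study cut both from 1 region. Their deviations from the group means had a Pearson r of 0.05, 0.01, 0.03 and 0.06 over 5000 probes in regions 1 to 4. Segments of unlike region number had an r of -0.05 to 0.04, so these values barely set true pairs apart. The LIN28A- segment of region 2 had a higher r with the LIN28A+ segment of region 1 (0.04) than with its own partner. Nothing states that control numbers pair with Diff regions.

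The comparison, the probe lists and the rules were chosen with earlier results of these data known. In each comparison except the interaction, the 2 higher and the 2 lower probes of smallest p were named, and in the interaction the 2 probes that passed.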

Additional observations from a re-analysis of the deposited data

Results flagged for a closer look

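RTS0068460 differed between Diff regions and controls in its segment difference (LIN28A- minus LIN28A+), by 2.93 on the log2 scale, and RTS0068462 by 2.03, both by the edgeR interaction test over regions that share animals. Both values came with high levels in LIN28A+ segments of control animal 1, at 1054 and 474 CPM, and without that animal neither probe passed (2.11 with an adjusted p of 0.052, and 1.29 with an adjusted p of 1.00). No Diff region, control section or randomly placed cKO section stood out from its group in total count, area, counts per area, share of the 100 most abundant probes, the level of the 2 lists or, for Diff and control libraries, the level of a named probe, by Dixon's 95% limit. With 4 regions that limit is reached only by a region far outside the other 3.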

How the results depend on the processing

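The count of probes that differed between Diff regions and controls, 160 by edgeR, was 99 with DESeq2, 547 with upper-quartile factors, 276 with each library as its own unit and 0 with quantile normalization and limma. It stayed within 1.5 times without the filter and among probes above the median CPM. Leaving out 1 region or animal gave 7 to 857, with 7 without control animal 1, 857 without control animal 2, 20, 280, 49 and 15 without Diff regions 1 to 4. Against randomly placed cKO regions the count of 2 was 1 with DESeq2, among probes above the median CPM and with each library as its own unit, 23 with upper-quartile factors and 0 with limma, where 585 had an unadjusted p under 0.05. It was 0 to 42 when a region or animal was left out, with 0 without cKO animal 1 and without Diff regions 1 or 3, 9 without cKO animal 2 and 42 without Diff region 2. For the segments of Diff regions the count of 60 was 4 with DESeq2 and 37 with no replicate block, and 12 to 131 when a region was left out, with 12 without region 2, 13 without region 3 and 131 without region 4. The interaction count of 2 was 0 with DESeq2 and with limma, 2 with no replicate block, and 0 to 13 when a region or animal was left out, with 0 without control animal 1 and 13 without control animal 2. The cause of these changes was not tested. The median of the LIN28A- side list against controls ran from -1.21 to -0.64 when a region or animal was left out and from -1.05 to -0.61 under the other alternatives, and that of the LIN28A+ side list from -0.07 to 0.11 and from -0.07 to 0.13. No named probe changed direction under any alternative. Of the 12 alternatives against controls, only those that gave a probe an adjusted p are counted for it. The adjusted p of RTS0073308 and RTS0078043 passed in 9 of 10 and 10 of 11 alternatives, and those of RTS0073540 and RTS0069165 in 7 of 11. DESeq2 gave no adjusted p for these 4 probes, and RTS0073308 was too low to be among the probes above the median CPM. The median probe had 10 to 32 counts in Diff segments.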
